A study of Mus musculus with 2 samples.

Results

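The genes described here are those of the chemokines, small secreted proteins that steer moving cells, and of their receptors. They were chosen by name alone, as the non-control probes whose gene name on the array is that of a CC, CXC, CX3C or XC chemokine or of a receptor for one. This gave 71 probes (80 spots) of 53 genes, 35 ligands and 18 receptors, out of 41174 non-control probes for 27962 gene names. Expression was measured on 1 array per line in 2 lines of mouse neural progenitor cells of strain 129/Ola. The Pax6 line carried the construct CAG-Pax6-IP, for the paired-box transcription factor Pax6, and the EGFP line carried CAG-EGFP-IP, for a green fluorescent protein. Both constructs were brought in with the Tol2 transposon. Both lines derive from N31, progenitors made from induced pluripotent stem cells (themselves induced from NSEB5-2C), and both carry the reprogramming factors c-Myc, Klf4, Oct3/4 and Sox2 under control of doxycycline. RNA of both was taken 24 h after doxycycline, when by the labels only EGFP cells had changed shape. The comparison bears on how Pax6 affects the early change of progenitors towards epithelial cells. Whether each line was 1 clone is not stated in the labels. The Pax6 gene itself read 822 on the Pax6 array and 557 on the EGFP array, 1.27-fold higher, and it is not known whether its probe reads the introduced copy, so the direction of every difference rests on the labels.

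Chemokines are held on cell surfaces and matrix by sulphated sugar chains and act through receptors that span the membrane and couple to inhibitory G proteins. Atypical receptors bind chemokines without that coupling and clear them. Inflammatory chemokines such as Ccl2 are switched on by cytokines and recruit blood leukocytes, while homeostatic ones are made steadily. In the developing brain, Cxcl12 guides migrating precursors through Cxcr4, and Ackr3 limits how much Cxcl12 they meet. Cx3cl1 and Cxcl16 are made as membrane-anchored proteins that can be shed.

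With 1 array per line there is no replicate check, so no p-value is given, and "higher" or "lower" describes these arrays. The software marked 67.2% of non-control spots on the Pax6 array, and 64.7% on the EGFP array, as well above background, and 0 as saturated. The value given as signal is the scanner software's processed signal, without scaling. For differences it was set relative to the array's 75th percentile, which was 991 on the Pax6 array and 854 on the EGFP array, and put on the log2 scale. The error after ± is the software's measurement error and covers neither culture nor labelling. Its median over genes was 0.20 on the log2 scale. Progenitor markers were present, with 8 of the 10 listed above background (among them Nes, Sox1, Sox2, Pax6, Vim, Msi1 and Fabp7) and Hes5 and Olig2 not. Of the 8, Sox2 was 3.34-fold higher in Pax6 cells, Nes was 3.17-fold lower, and the others were within 2-fold. Both lines carry an introduced Sox2, and it is not known whether the Sox2 probe reads it. Sox1 read 18.7 on the Pax6 array and 19.2 on the EGFP array, and Fabp7 19.7 and 12.3 in that order. The lowest signals that passed background were 9.30 on the Pax6 array and 10.3 on the EGFP array, so both genes were dimly present. Where a bulk signal differs, more cells that express a gene and more RNA per cell cannot be told apart.

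Most chemokine genes stayed near background on both arrays, and a gene or probe not well above background is called dim here. Of the 53 genes, 20 were well above background on both arrays, 4 on 1 array and 29 on neither (19 ligands and 10 receptors). Thus 24 of 53 members passed on at least 1 array, against 19250 of 28778 genes on the whole array, counted by current symbol where one was found. Among the 20 genes measured on both arrays, 5 were higher by 2-fold or more in Pax6 cells and 0 were lower by that much. These were the ligands Cxcl14 (16.3-fold), Cxcl12 (4.03-fold) and Cx3cl1 (2.21-fold) and the receptors Cxcr4 (3.43-fold) and Cxcr6 (3.26-fold). Over all 17832 genes measured on both arrays, 1.93% were higher and 2.07% lower by 2-fold or more, and over the 19250 that passed background on either array 4.77% differed by that much. The median log2 difference of the 20 was 0.02, against -0.02 for all such genes, so the middle of the list lay near that of all genes. A further 4 genes (Ccr2, Cxcl5, Cxcl7 and Ccl8) passed the background filter through the Pax6 array alone and could therefore only count as higher. Over all genes, 1077 passed through the Pax6 array alone and 341 through the EGFP array alone, by the probe used for each gene.

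**Figure D1:**
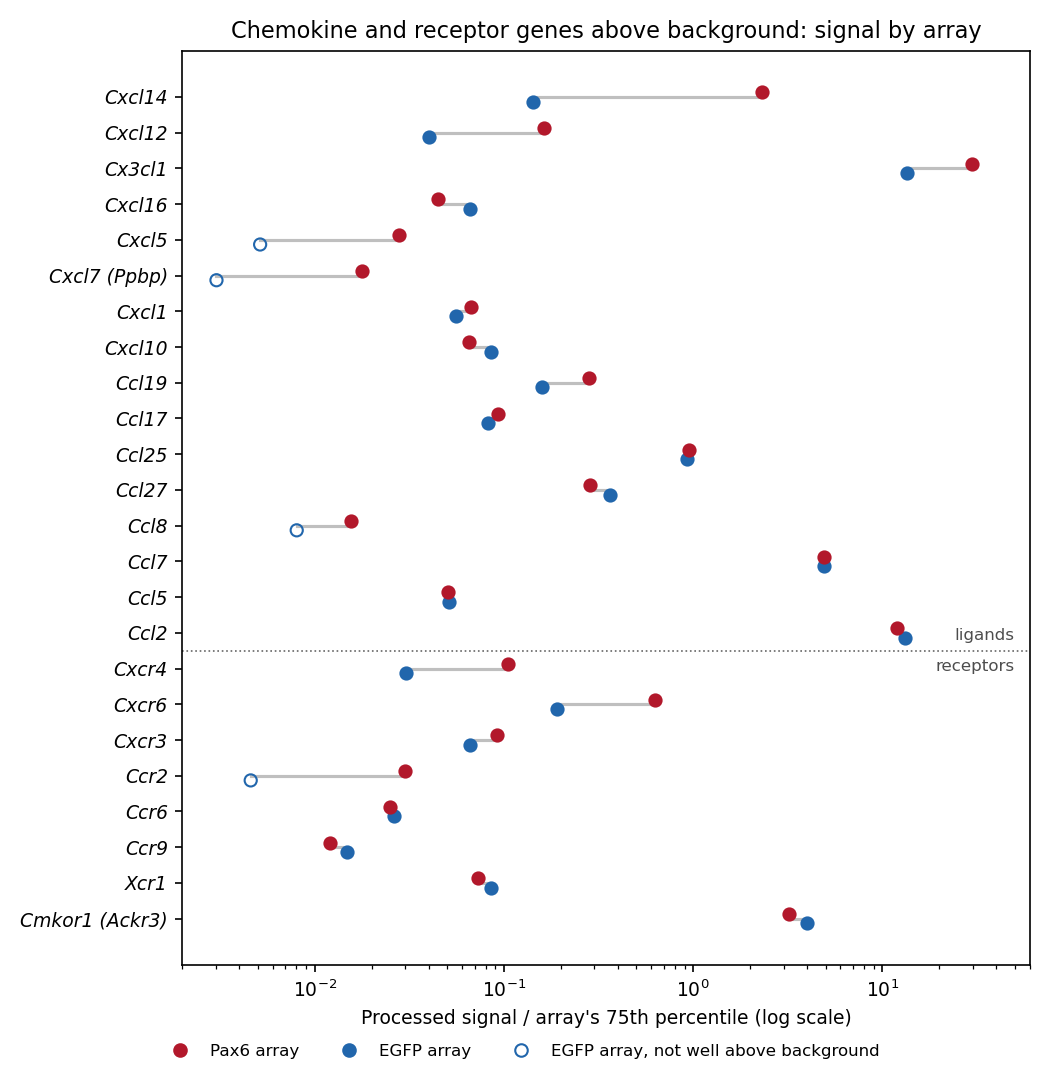
Processed signal divided by the array's 75th percentile (log axis) for the 24 chemokine and receptor genes that passed background on either array, Pax6 array in red and EGFP array in blue, ligands above the dotted line and receptors below it. Open circles mark the 4 genes that were dim on the EGFP array. The widest gap is that of Cxcl14, and most other pairs of points lie close together.

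The promoters of the 5 genes that were at least 2-fold higher and measured on both arrays are printed because these genes carry the difference. Each runs from 250 bases before to 50 bases after the start of the gene, from RefSeq on build GRCm38.p6, in the direction of the gene. They lie at chr13:56296502-56296801 (minus strand), chr6:117168285-117168584 (plus), chr8:94771930-94772229 (plus), chr1:128592250-128592549 (minus) and chr9:123806227-123806526 (plus). Capitals mark matches on either strand to any of 7 motifs, and overlapping matches run together.
Cxcl14: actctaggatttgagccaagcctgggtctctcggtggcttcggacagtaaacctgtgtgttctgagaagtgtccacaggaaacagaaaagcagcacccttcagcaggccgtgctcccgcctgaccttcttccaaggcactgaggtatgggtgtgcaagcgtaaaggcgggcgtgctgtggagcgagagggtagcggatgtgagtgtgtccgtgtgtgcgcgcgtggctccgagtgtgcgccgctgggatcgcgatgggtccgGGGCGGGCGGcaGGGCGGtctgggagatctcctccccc
Cxcl12: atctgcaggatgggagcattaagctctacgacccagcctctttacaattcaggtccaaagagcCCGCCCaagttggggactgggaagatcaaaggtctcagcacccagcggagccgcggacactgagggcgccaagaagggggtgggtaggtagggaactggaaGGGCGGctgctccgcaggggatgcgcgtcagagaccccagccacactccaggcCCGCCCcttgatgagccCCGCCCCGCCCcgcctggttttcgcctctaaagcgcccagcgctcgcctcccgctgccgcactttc
Cx3cl1: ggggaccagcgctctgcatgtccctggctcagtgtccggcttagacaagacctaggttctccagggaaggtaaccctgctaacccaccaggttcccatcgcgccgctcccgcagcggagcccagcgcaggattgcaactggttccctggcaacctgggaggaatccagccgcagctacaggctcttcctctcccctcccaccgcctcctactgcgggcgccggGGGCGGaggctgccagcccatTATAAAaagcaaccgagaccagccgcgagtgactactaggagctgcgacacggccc
Cxcr4: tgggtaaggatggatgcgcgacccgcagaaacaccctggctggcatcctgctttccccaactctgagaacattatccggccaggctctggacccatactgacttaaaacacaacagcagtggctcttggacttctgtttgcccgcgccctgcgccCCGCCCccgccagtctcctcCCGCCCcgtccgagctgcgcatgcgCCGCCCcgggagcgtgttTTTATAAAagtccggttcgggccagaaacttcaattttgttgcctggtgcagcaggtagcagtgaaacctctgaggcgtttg
Cxcr6: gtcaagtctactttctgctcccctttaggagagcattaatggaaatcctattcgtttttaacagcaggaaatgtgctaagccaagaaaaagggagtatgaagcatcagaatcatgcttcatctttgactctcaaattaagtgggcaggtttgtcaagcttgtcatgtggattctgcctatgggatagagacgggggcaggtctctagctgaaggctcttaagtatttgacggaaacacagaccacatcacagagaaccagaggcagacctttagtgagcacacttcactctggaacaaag
The motifs searched were the core of the Pax6 paired domain site (TTCACGC), the paired-type homeodomain site (TAAT and ATTA with 3 bases between), the E-box bound by Zeb and Snail factors (CACCTG), the GC box (GGGCGG), the TATA box (TATAAA), the hypoxia element core (ACGTG) and the NF-kB site by its usual consensus.

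The capitals in Cxcl12 are GC boxes only, 5 of them, 2 of which overlap. Cxcl14 holds 3 GC boxes, 2 of which overlap, Cx3cl1 a GC box and a TATA box, and Cxcr4 3 GC boxes and a TATA box read on both strands. The Cxcr6 window holds no match to any of the 7. It also has 3 CpG dinucleotides and 44.3% G and C, against 19 to 22 CpG and 59.3% to 64.7% in the other 4. The Pax6 core, the homeodomain site, the E-box, the hypoxia core and the NF-kB match occur in none of the 5 windows. Promoters were found for 40 of the 53 genes (46 windows). Of these 46, 1 holds the Pax6 core (that of Ccl19), or 2.17%, against 1.26% of all 32851 promoters in the table. The homeodomain site is in 0, against 0.487%. The NF-kB match is in 23.9%, against 8.46% of all promoters, the TATA box in 28.3% against 13.6%, and the GC box in 21.7% against 35.7%. The E-box is in 19.6% against 20.2%, and the hypoxia core in 21.7% against 19.6%. A match of letters is a description and not a bound site.

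Cxcl14, a chemokine made steadily by epithelia and by some neurons and fibroblasts, had the widest difference of the members measured on both arrays. Its signal was 2291 ± 229 on the Pax6 array and 121 ± 12.3 on the EGFP array (software error). Both values lie far above background. Its probe (chromosome 13, 55377968 to 55378027, build mm7) differed by 4.03 ± 0.21 on the log2 scale, which ranked 3 among the 17832 genes by size of a higher value. With another background correction (normexp, described with the processing) it was 3.45 to 3.48. The array has 1 probe for this gene, so no other probe checks it.

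Cxcl12 and its receptor Cxcr4 were both higher on the Pax6 array, while the atypical receptor for Cxcl12 was not. The brighter Cxcl12 probe (chromosome 6, 117207552 to 117207611) read 160 on the Pax6 array and 34.3 on the EGFP array, a difference of 2.01 ± 0.23. The other (chromosome 6, 117200799 to 117200858) read 28.4 on the Pax6 array and a dim 6.39 on the EGFP array, so it was at least 2.36-fold higher. The Cxcr4 probes (chromosome 1, 128468640 to 128468699 and 128469220 to 128469279) gave the same order of the arrays. The brighter read 104 on the Pax6 array and 26.03 on the EGFP array, and the other 42.9 on the Pax6 array and 15.9 on the EGFP array. Their differences were 1.78 ± 0.25 and 1.22 ± 0.29. Both pairs of probes therefore place the Pax6 array above the EGFP array by more than the measurement error, at low signals. The probe named Cmkor1 on the array, now Ackr3, read 3192 on the Pax6 array and 3409 on the EGFP array, a difference of -0.31 ± 0.20.

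The Cxcl12 and Cxcr4 differences were smaller in both settings with normexp, which changed the background model, the input signals and the offset together. With normexp, Cxcl12 differed by 1.10 after quantile normalization and by 0.9998 after scaling by the 75th percentile, which is just short of 2-fold. Cxcr4 differed by 0.98 and 0.85 in the same settings, within 2-fold. Both stayed higher on the Pax6 array in all 12 alternative settings that were run. Those that took the deposited series table or treated dim probes otherwise left both values unchanged.

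Cx3cl1, also called fractalkine, a membrane-anchored ligand that neurons present to microglia, was bright on both arrays. Its main probe (chromosome 8, 93371329 to 93371388) read 29501 ± 2950 on the Pax6 array and 11523 ± 1152 on the EGFP array. The difference was 1.14 ± 0.20, and 1.14 and 1.19 with normexp. A second probe (93361886 to 93361945) was not matched to RefSeq. It read 43.0 on the Pax6 array and 20.8 on the EGFP array, a difference of 0.83 ± 0.26. The mean of both probes was 0.99, just under 2-fold. Its receptor gene Cx3cr1, typical of microglia, was not well above background on either array with either of its probes (2.61 and 2.22 on the Pax6 array, 3.24 and 2.55 on the EGFP array).

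Cxcl16, the other membrane-anchored ligand, and its receptor Cxcr6 differed in opposite directions. The Cxcr6 signal was 620 ± 62.1 on the Pax6 array and 164 ± 16.5 on the EGFP array (chromosome 9, 123530288 to 123530347), a difference of 1.71 ± 0.20, and 1.37 to 1.40 with normexp. Its single probe kept a difference of 2-fold or more in all 12 settings, and so did that of Cxcl14. For both genes the deposited series table, the probe rules and the treatment of dim probes could not change the value. Only the scaling and normexp settings could. The brighter Cxcl16 probe read 44.5 on the Pax6 array and 56.3 on the EGFP array, and the other 36.0 on the Pax6 array and 61.3 on the EGFP array. Their differences were -0.55 ± 0.23 and -0.98 ± 0.22, both within 2-fold. Cxcl16 was the only measured member lower on the Pax6 array by more than 2 times its error.

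**Figure D2:**
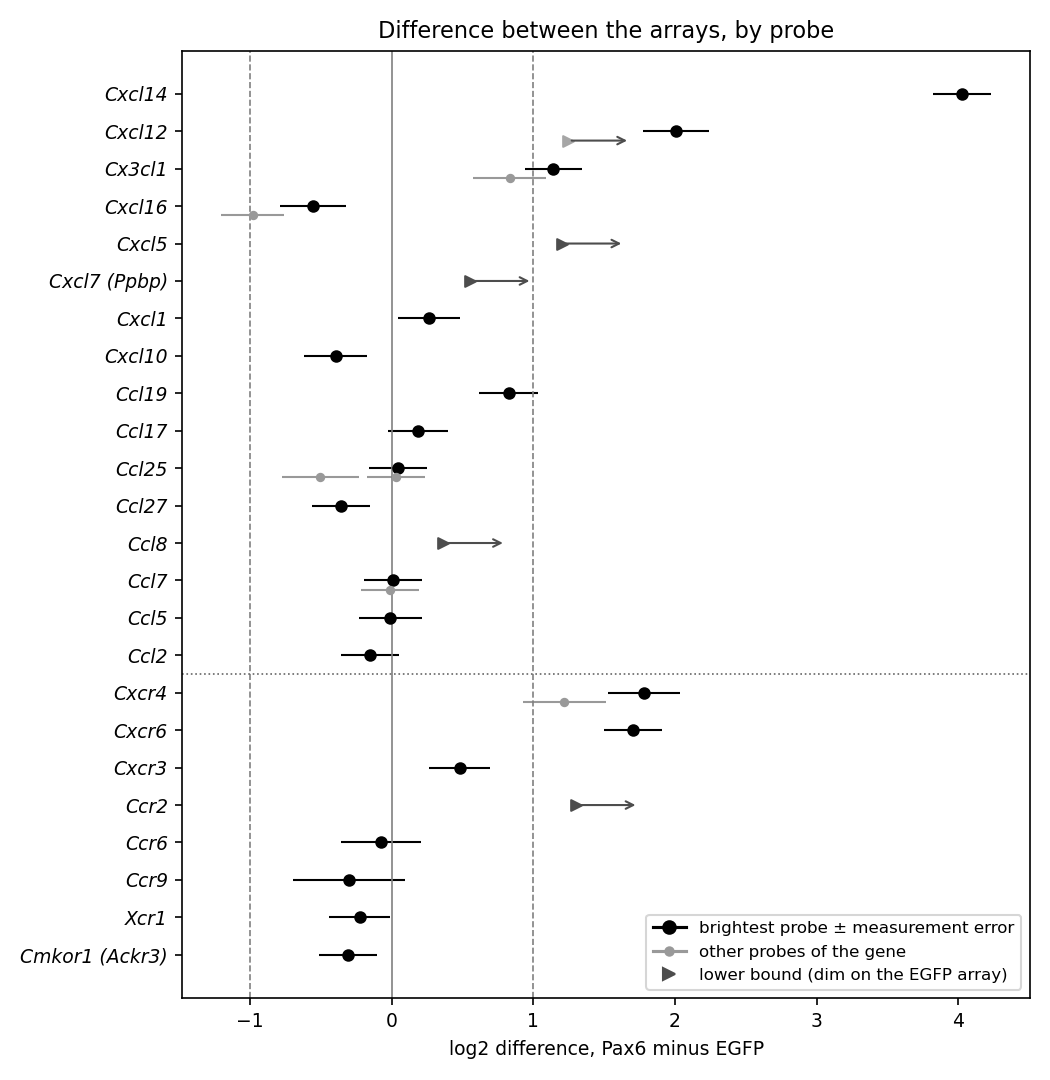
The log2 difference (Pax6 minus EGFP) of each probe above background, with bars for the software's measurement error, the brightest probe of a gene in black and its other probes in grey. Arrowheads are lower bounds, dashed lines mark 2-fold, and the order of genes is by role with receptors below the dotted line. The probes of Cxcl12, Cxcr4 and Cx3cl1 all lie to the right of 0 and both probes of Cxcl16 to the left.

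The remaining chemokines that attract neutrophils and act through Cxcr2, or come from platelets, had low signals. Cxcl5, a neutrophil attractant, read 27.6 on the Pax6 array and a dim 4.40 on the EGFP array, and was at least 2.30-fold higher. Cxcl7, the platelet basic protein now named Ppbp, read 17.6 on the Pax6 array and 2.59 on the EGFP array, at least 1.47-fold higher. These bounds take 10.3 in place of the dim value, the lowest EGFP signal that the software marked as well above background. With normexp, which adds an offset of 50 to every signal, Cxcl5 differed by 0.51 or 0.36 and Cxcl7 by 0.22 or 0.05. Cxcl1 was above background on both arrays, at 66.6 on the Pax6 array and 47.7 on the EGFP array (0.26 ± 0.22), and Cxcl2, Cxcl4 (now Pf4) and Cxcl15 were dim on both. The neutrophil marker S100a8 lay in the same direction, with 646 on the Pax6 array and a dim 15.1 on the EGFP array, at least 36.9-fold higher. Of the 7 neutrophil markers with a probe, 2 were above background, S100a8 and Mpo (-0.02 ± 0.23), and S100a9, Ngp, Camp, Elane and Csf3r were dim on both arrays. The summed signal of the list, relative to the 75th percentile, was 0.713 on the Pax6 array and 0.0762 on the EGFP array. For the 6 markers without S100a8 it was 0.0614 on the Pax6 array and 0.0585 on the EGFP array. S100a8 was left out because its gap in relative signal between the arrays was the widest of the list.

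Of the inflammatory CC chemokines, Ccl2 and Ccl7 were bright, and none of those measured on both arrays differed by 2-fold. Ccl2, the main attractant of monocytes (chromosome 11, 82118723 to 82118782), was measured by 10 spots on each array. They ranged from 10932 to 12697 with a median of 11689 on the Pax6 array and from 10313 to 12314 with a median of 11361 on the EGFP array, so the 2 ranges overlapped. Relative to the 75th percentile the difference was -0.15, with an SD of 0.10 over the spots. Ccl7, a related monocyte attractant, read 4888 on the Pax6 array and 4193 on the EGFP array, and its 2 probes differed by 0.01 ± 0.20 and -0.01 ± 0.20. Ccl5, an attractant of T cells, read 50.4 on the Pax6 array and 43.7 on the EGFP array (-0.01 ± 0.22) with a probe that was not matched to RefSeq. Its other probe, matched to Ccl5, was dim at 6.67 on the Pax6 array and 3.17 on the EGFP array. Ccl8 read 15.5 on the Pax6 array and a dim 6.86 on the EGFP array, at least 1.29-fold higher. Ccl1, Ccl3, Ccl4, Ccl6, Ccl9, Ccl11, Ccl12 and Ccl24 were dim on both arrays.

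The receptor that Ccl2 and Ccl7 share, Ccr2, was above background with 1 of its 2 probes. That probe (chromosome 9, 123827706 to 123827765) read 29.6 on the Pax6 array and 3.92 on the EGFP array, at least 2.46-fold higher. The other, the only one whose accession is listed for Ccr2 in RefSeq, read 2.57 on the Pax6 array and 2.87 on the EGFP array and was above background on neither. The 2 probes thus disagree on whether Ccr2 was above background on the Pax6 array. With normexp the difference of the brighter probe was 0.39 or 0.24, within 2-fold. Of 10 markers of microglia and macrophages, 3 were above background (Cd68 at -0.52 ± 0.20, Fcer1g at 0.05 ± 0.21, and Csf1r at 13.4 on the Pax6 array only). Aif1, Itgam, Ptprc, Tyrobp, Emr1, P2ry12 and Cx3cr1 were dim on both, and the summed relative signal of the list was 0.467 on the Pax6 array and 0.568 on the EGFP array.

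Homeostatic and dual CC chemokines lay within 2-fold. The widest difference was that of Ccl19, a ligand of Ccr7 that gathers T cells and dendritic cells in lymph nodes, at 277 on the Pax6 array and 135 on the EGFP array (0.82 ± 0.21, and 0.56 to 0.64 with normexp). A second Ccl19 probe nearby was above background on neither array. The mouse genome holds pseudogene copies of Ccl19 and several copies each of Ccl21 and Ccl27, so these probes may read related sequence. Ccl27, a skin chemokine, read 281 on the Pax6 array and 310 on the EGFP array (-0.36 ± 0.20). Ccl17, a ligand of Ccr4, read 92.5 on the Pax6 array and 70.2 on the EGFP array (0.18 ± 0.21). Ccl25, a thymus and gut chemokine, read 946 on the Pax6 array and 792 on the EGFP array (0.04 ± 0.20). Its next brightest probe gave 0.03 ± 0.21. The dimmest, not matched to RefSeq, gave -0.50 ± 0.27, at 22.6 on the Pax6 array and 27.6 on the EGFP array. Ccl20, Ccl21c, Ccl22 and Ccl28 were dim on both arrays.

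The interferon-induced ligands of Cxcr3 were mostly dim. Cxcl10 read 64.4 on the Pax6 array and 73.1 on the EGFP array (-0.40 ± 0.22), and Cxcl9 and Cxcl11 were dim on both arrays. Their receptor Cxcr3, which marks activated T cells, read 91.0 on the Pax6 array and 56.3 on the EGFP array (0.48 ± 0.22). Of 15 other interferon-induced genes above background, 0 were higher by 2-fold or more and 1 was lower, the protease gene Usp18 (20.01 on the Pax6 array and 63.0 on the EGFP array, -1.87 ± 0.25). Their median difference was -0.27, against -0.01 over all 19250 genes above background on at least 1 array. Of those 19250, 2.35% were higher and 2.43% lower by 2-fold or more.

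The other receptors showed small differences at low signals. Ccr6 read 24.7 on the Pax6 array and 22.4 on the EGFP array (-0.08 ± 0.28). Ccr9, the receptor of Ccl25, read 11.9 on the Pax6 array and 12.6 on the EGFP array (-0.30 ± 0.40). Xcr1, a receptor of cross-presenting dendritic cells, read 72.5 on the Pax6 array and 73.2 on the EGFP array with 1 probe (-0.23 ± 0.21) and was dim on both arrays with the other. None of these differences was beyond 2 times its error. Ccr1, Ccr3, Ccr4, Ccr7, Ccr8, Ccr10, Cx3cr1, Ccrl1 (now Ackr4) and Ccrl2 were dim on both arrays, and so were the ligands Cxcl13 and Xcl1. The 36 probes of the 29 genes dim on both arrays read at most 10.1 on the Pax6 array and 11.0 on the EGFP array.

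Setting ligands beside their receptors, 5 receptors were above background together with a ligand on both arrays. These pairs were Cxcl12 with Cxcr4 and with Ackr3, Cxcl16 with Cxcr6, Cxcl10 with Cxcr3, and Ccl25 with Ccr9. In the pair of Cxcl12 with Cxcr4 both members passed 2-fold. The receptors of Cx3cl1, Ccl17, Ccl19 and Ccl27 were dim on both arrays, and so was Cxcr2, the receptor of Cxcl1 and Cxcl5, which the array lists as Il8rb. Cxcr5, listed as Blr1 and so not chosen by name, read 30.5 on the Pax6 array and a dim 10.3 on the EGFP array, a difference of at least 2.54-fold that was seen before the gene was picked out. Cxcl17, listed as BC024561, was dim at 14.4 on the Pax6 array and read 16.9 on the EGFP array, at least 1.36-fold lower.

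Within the chromosomal clusters, members past 2-fold lay beside members within 2-fold or dim. On chromosome 8, Ccl22, Cx3cl1 and Ccl17 lie within 61.1 kb, and Cx3cl1 was 2.21-fold higher, Ccl17 within 2-fold and Ccl22 dim. On chromosome 9, Ccr9, Cxcr6, Xcr1, Ccr1, Ccr3 and Ccr2 lie within 328 kb. Of these 6, Cxcr6 and, by its bound, Ccr2 passed 2-fold, while Ccr9 and Xcr1 on each side of Cxcr6 were within 2-fold. The 6 genes from Ccl2 to Ccl1 on chromosome 11 span 140 kb and hold 0 that differed by 2-fold. The 6 from Cxcl5 to Cxcl2 on chromosome 5 span 162 kb and hold 1, Cxcl5 at its end. Cxcl14, Cxcl12 and Cxcr4 have no other member within 500 kb. These distances are those of the probes on mm7. An annotation of that build was not used here, so which exon or untranslated region a probe lies in is not stated.

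**Figure D3:**
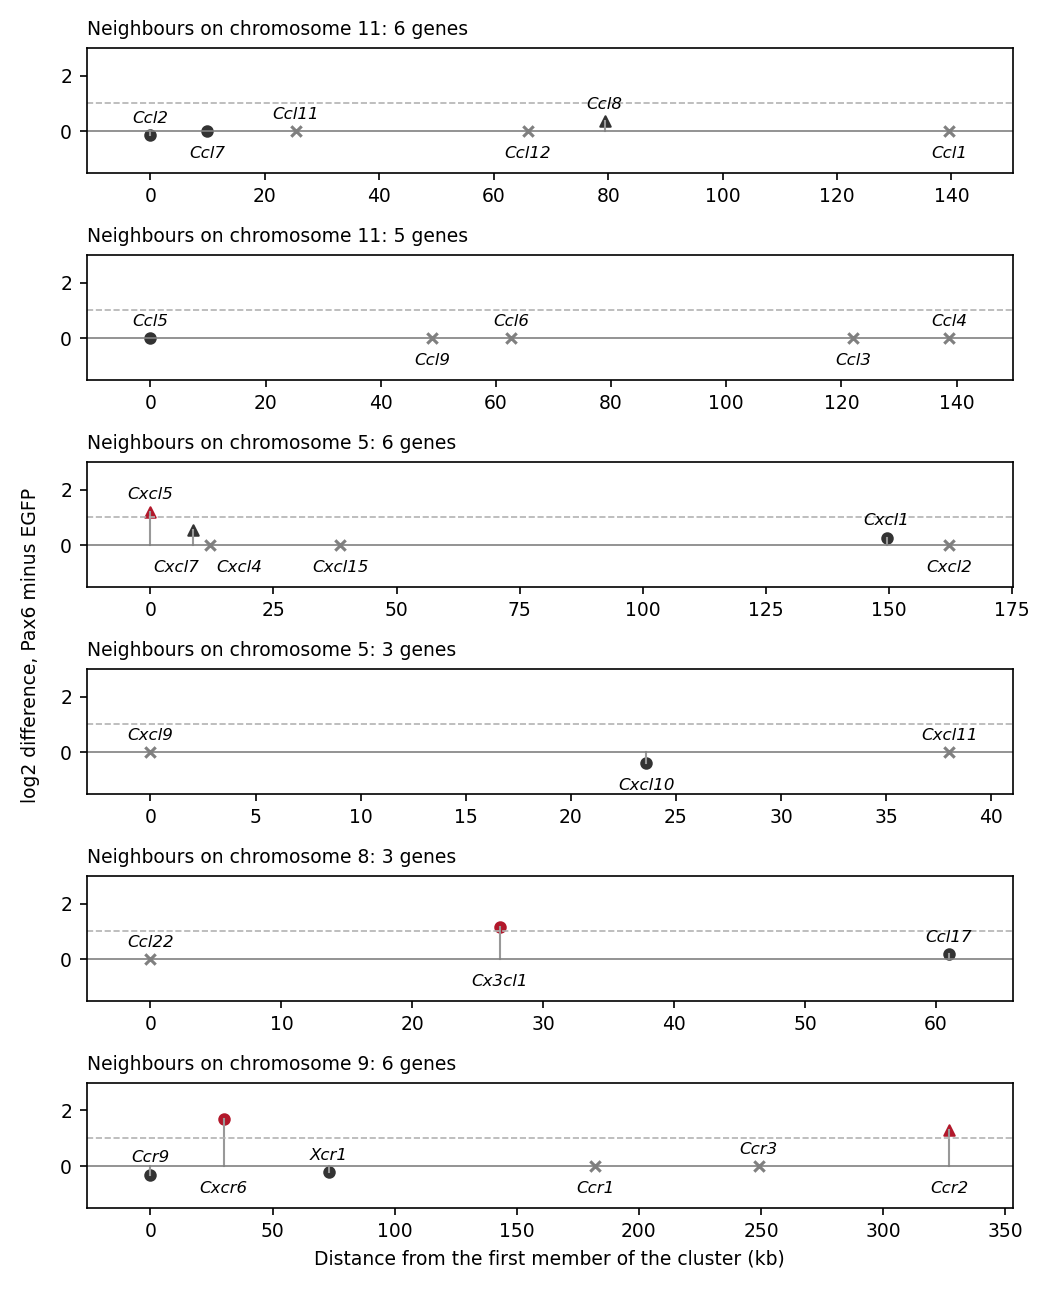
The log2 difference (Pax6 minus EGFP) of the members of each chromosomal cluster of at least 3 genes, against the distance in kb from its first member. Circles are measured on both arrays, triangles are lower bounds, crosses at 0 are genes above background on neither array, and red marks a difference of at least 2-fold. Red symbols stand beside black circles or crosses in each cluster that holds one.

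Genes that act around chemokines lay almost entirely within 2-fold. Over all 19250 genes 2.35% were higher and 2.43% lower by 2-fold or more (2.79% and 1.92% when arrays were scaled to their medians). Of the 25 genes of receptor signalling above background (G protein subunits, arrestins, receptor kinases and small GTPases), 0 were 2-fold higher and 0 lower, with a median of -0.11. The nearest was Rac2, a GTPase of blood cells, at 11.6 on the Pax6 array and 19.8 on the EGFP array (-0.99 ± 0.36). Of 14 carriers and modifiers of heparan sulphate, which hold chemokines at the surface, 1 was at least 2-fold higher. This was Sulf2, a sulphatase gene that trims those chains, at 262 on the Pax6 array and 109 on the EGFP array (1.05 ± 0.21). Counts were 0 higher and 0 lower among 8 proteases that cut chemokines (median -0.31) and among 22 inducers and targets of NF-kB (median 0.04). In the NF-kB list Ptgs2, the gene of an inducible prostaglandin synthase, came nearest to 2-fold (0.96 ± 0.20), and the cytokine genes Tnf, Il1a and Il1b were dim on both arrays. Among 8 genes of hypoxia and Cxcr4 regulation 0 differed by 2-fold (median 0.25), with Hif1a at 0.26 ± 0.20 and Vegfa at -0.01 ± 0.20. Of 10 chemokine-like ligands, atypical receptors and related genes 0 differed by 2-fold, with Mif, a cytokine that also binds Cxcr4, at 0.17 ± 0.20 and its receptor chain Cd74 at 0.57 ± 0.21.

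Stromal cells are known sources of Cxcl12 and Cxcl14, so fibroblast markers are given beside them. All 10 were above background, and 4 were higher by 2-fold or more (Dcn at 2.95 ± 0.21, Col3a1 at 1.93 ± 0.20, Pdgfra at 1.92 ± 0.22, and Fap at least 19.2-fold) and 3 were lower by as much (Col1a1 at -2.33 ± 0.21, Col1a2 at -1.18 ± 0.20, and Thy1 at least 4.40-fold). The summed relative signal of the list was 65.1 on the Pax6 array and 112 on the EGFP array. Most of it was Col1a2, and without that gene the sums were 18.2 on the Pax6 array and 6.05 on the EGFP array. Col1a2 was left out because its gap in relative signal between the arrays was the widest of the list. Leaving it out had to move the sums against its direction, so the turned order is no separate result. Of the other marker lists, the counts past 2-fold, higher and lower, were 1 and 1 of 7 astrocyte markers above background (Aqp4, at least 3.86-fold higher, and Slc1a3, 12.9-fold lower), 0 and 1 of 6 neuron markers (Snap25, 3.15-fold lower), 0 and 0 of 4 endothelial markers and 0 and 1 of 4 T cell markers (Thy1 again). Over all 19250 genes above background on at least 1 array, 2.35% were higher and 2.43% lower by 2-fold or more. The part of other cell types in the chemokine differences was not tested.

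Read against the measurement error alone, 8 of the 20 genes measured on both arrays differed by more than 2 times their error. Of these, 7 were higher on the Pax6 array (the 5 named above with Ccl19 and Cxcr3) and 1 was lower, Cxcl16. Over all 17832 genes 17.5% passed that rule, 7.35% higher and 10.2% lower. In the plot of all genes the 5 lie above the band that holds most genes of similar signal, and the other 15 within or near it.

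**Figure D4:**
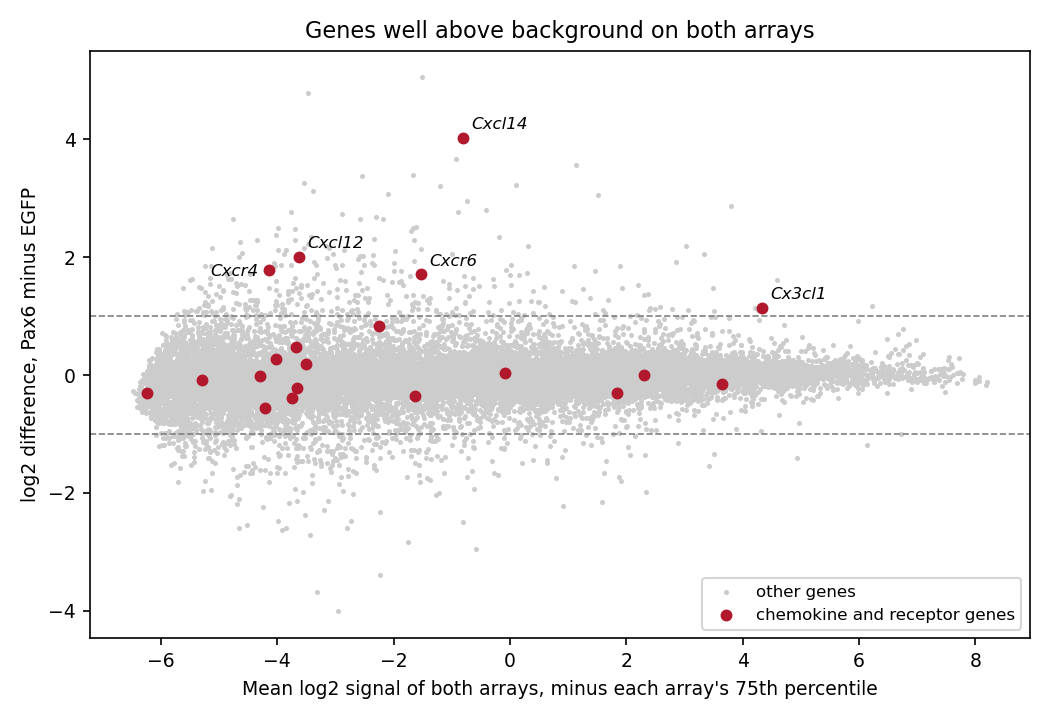
The log2 difference (Pax6 minus EGFP) against the mean log2 signal relative to each array's 75th percentile, for the 17832 genes well above background on both arrays, with the 20 chemokine and receptor genes in red and dashed lines at 2-fold. The 5 labelled genes lie above the upper line and no red point lies below the lower one.

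**Figure D5:**
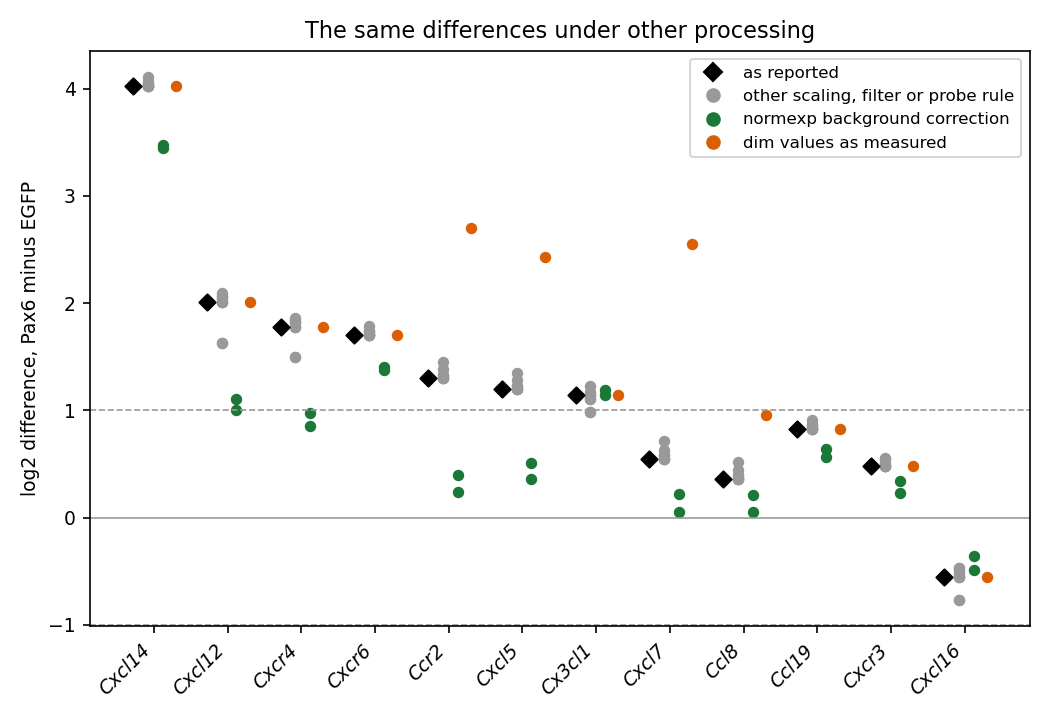
The log2 difference (Pax6 minus EGFP) of the 7 genes at least 2-fold higher and of 5 others under the reported processing (diamonds) and the alternatives (circles), with dashed lines at 2-fold. Cxcl14 and Cxcr6 stay above the upper line throughout, while Cxcr4, Ccr2 and Cxcl5 fall below it with normexp. Cxcl12 falls just below it with normexp and 75th percentile scaling, and Cx3cl1 with the mean or median of its probes.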

How the data were processed

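Total RNA extracted with ISOGEN was amplified, labelled with Cy3 and hybridised to 1-colour Agilent arrays, per the labels' protocols. Per the file headers, Agilent Feature Extraction 10.7.3.1 read the spots. The authors deposited its processed intensity, from which local background and spatial trend had been removed array by array, with no step between arrays. Per the file headers, other deposited columns flag outlier spots and those over background by 13 of its SDs. Probe positions are those of the array design (mm7). The 2 arrays lay on 1 slide.

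From these, control and outlier spots (52 on the Pax6 array and 51 on the EGFP array, 0 of them of the members) were left out, which kept 43283 spots. The log2 signal minus that of the array's 75th percentile was averaged over a probe's spots. A gene took its brightest probe above background. Differences run Pax6 minus EGFP. A gene dim on 1 array has a lower bound, "at least", against the dim value or the lowest value that passed the background flag, whichever was higher. Genes were called at 2-fold, and no test was possible with 1 array per line. Probe accessions gave current symbols for 56.1% of probes. Alternatives were median, quantile, cyclic loess and spike-in scaling, normexp (offset 50, on mean and local background signals) with quantile or 75th percentile scaling, the deposited series table (the same values), other probe rules, filters and thresholds. The members, lists, rules and alternatives were chosen with earlier results of these data known. Some listed genes are not reported here by name. All members above background are named, and from other lists those at least 2-fold different. Further list genes were chosen as examples after their values were seen. The steps used Python 3.11.15, R 4.3.3 and limma 3.58.1. Scaling, probe averaging and calling were tested on simulated data, with changes past 2-fold placed only in genes measured on both arrays. That test covered neither changes in dim genes nor the normexp, quantile and cyclic loess settings.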

Additional observations from a re-analysis of the deposited data

How the results depend on the processing

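The count of 7 chemokine and receptor genes higher by 2-fold or more in Pax6 cells, lower bounds included, was 4 with normexp and quantile normalization, 3 with normexp and 75th percentile scaling and 4 at a threshold of 3-fold, and 5 to 10 in the other settings. The members counted were 24, but 20 with the filter on both arrays and 53 without a filter. The share of all genes that were higher was 2.35% as reported. It was 0.914%, 0.842% and 0.857% in the 3 settings named, in that order, and 1.93% to 3.7% in the others. The count of 0 lower was 3 without a filter on dim probes, where 3.95% of all genes were lower, and 0 in every other setting. Without that filter the median of the members was -0.17, in place of 0.22 over the 24 genes. The 7 include Ccr2 and Cxcl5, and the 0.22 all 4 genes with lower bounds, which could only count as higher. Over the 20 genes measured on both arrays the median was 0.02. Without the filter on dim probes 29 of the 53 values come from dim probes. Over all genes, 919 differed by at least 2-fold, 285 with normexp and quantile normalization, 281 with normexp and 75th percentile scaling, 2187 without a filter and 268 at 3-fold. The share of these calls that were higher was 49.2%, but 59.3% after scaling by the median and 61.8% with normexp and quantile normalization. Of 284 values of the 24 genes over 12 settings, 263 lay within the measurement error of the reported value, 21 did not, and 0 of the called genes changed sign. The causes were not tested. Many of the 263 could not differ, since the series table holds the same values and single-probe genes do not depend on the probe rule. Signals near background limit Cxcl5, Cxcl7, Ccl8 and Ccr2, whose differences as measured were 2.44, 2.55, 0.96 and 2.70. No paired analysis was possible because each line has 1 array.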
